A study of Homo sapiens with 8 samples.

Results

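R50 cells, HCT-116 cells that grow in the CDK inhibitor NU6102, were compared with the untreated WT cells from which they were derived, across all genes of the array. The comparison used 4 of the 8 arrays of the series, 2 for each group, and 15438 genes could be tested. HCT-116 is a human colorectal carcinoma line. The R50 line was selected and then kept in 50 µM NU6102, a purine inhibitor of CDK1 and CDK2, and its RNA came from cells growing in the drug, so that the selected state and the presence of the inhibitor cannot be told apart. The sources used here do not say whether R50 descends from 1 cell. The remaining arrays held WT cells given 20 µM NU6102 for 24 h (WT+NU6102) and HCT-116 cells lacking CDK2 (CDK2-/-), and their values are given beside those of R50 where they help to place a level. All groups are the same line grown in the same medium, and the submitters describe the 2 samples of a group as biological replicates.

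Cyclin-dependent kinases drive the cell cycle when they are bound to a cyclin. CDK4 and CDK6 with D cyclins act in G1 by phosphorylating RB, CDK2 with cyclins E and A acts at the start and during S phase, and CDK1 with cyclins A and B acts at mitosis. Cells that survive such an inhibitor are known to do so by several routes, among them export or breakdown of the drug, a change in the kinases themselves and a change in the signals that act above them, and the genes of these routes were listed for the comparison.

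The 4 arrays were of like quality. Between 32773 and 33773 spots were marked by the scanner software as well above background on the R50 arrays and between 34315 and 34586 on the WT arrays, none was saturated, and the median difference between duplicates of a probe was 0.0890 on the log2 scale for WT and 0.0969 for R50. Both arrays of R50 lay on slide 1 with those of CDK2-/- cells, and both arrays of WT lay on slide 2 with those of WT+NU6102. Slide and group thus cannot be told apart for R50 against WT or for CDK2-/- against WT. A difference from WT that R50 and CDK2-/- cells share cannot be told apart from slide either. R50 against CDK2-/- is a comparison within a slide. The normalised log2 level of 7 spike-in probes had a median of 2.96 and 2.63 on the WT arrays and of 2.59 and 2.75 on the R50 arrays. The labelled cell type was checked with epithelial markers of the colon. EPCAM, CDH1, KRT8, KRT18, KRT19 and CDX2 were well above background on both arrays of both groups, while VIL1 and CDH17 were not on any. The summed level of the list was between 9.39 and 9.42 in WT and 10.0 on both R50 arrays. Of 8 fibroblast markers COL1A1 alone was well above background, and it was higher in R50 by 0.67. Of the melanoma, leukocyte and endothelial markers tested, MITF (1.18) and CD68 (−1.57) were called, and the part of other cell types in the results was not tested. CDK2-/- cells differed from WT by 0.80 for MITF and by −1.41 for CD68. Here and below, a level is the log2 of a probe's signal less the 75th percentile of its array, and a difference is R50 minus WT on that scale.

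R50 and WT differed in a small share of genes by a large amount and in many by a small amount. At an adjusted p under 0.05 (limma) and a change of at least 1 on the log2 scale, 298 of 15438 genes were higher in R50 (1.93% of those tested) and 129 were lower (0.836%). Genes that meet both conditions are called changed below. Without the condition on size, 2002 genes were higher (13%) and 2452 were lower (15.9%), and these are said to have passed the test. The median difference over all genes was −0.04. Of the called genes that all 4 arrays measured well above background, 36 rose and 18 fell by at least 2, and 4 rose and none fell by at least 4. Whole cultures were measured, so that a change in every cell and a change in some of the cells cannot be told apart. The counts without the condition on size depended on the number of arrays, since they dropped to between 916 and 1277 in either direction when any 1 of the 4 arrays was left out.

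**Figure D1:**
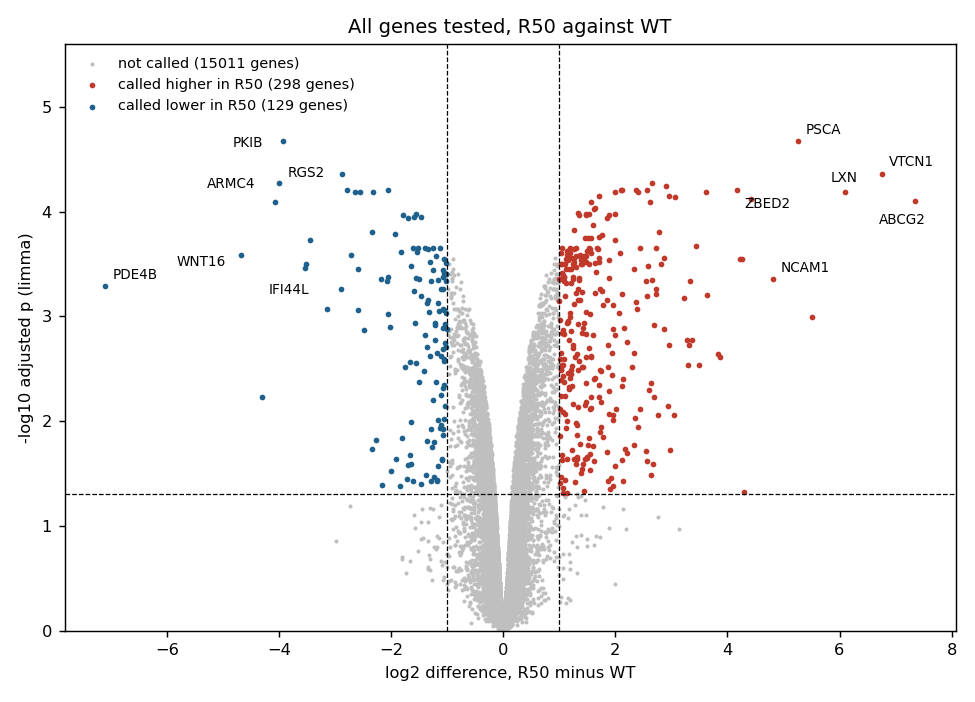
Difference between R50 and WT (x axis, log2) against the adjusted p from limma (y axis, -log10) for each of the 15438 genes, with dashed lines at a difference of 1 in either direction and at an adjusted p of 0.05. Red points are the 298 genes called higher in R50 and blue points the 129 called lower; ABCG2 and VTCN1 lie farthest to the right and PDE4B farthest to the left.

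Probes of 3 genes at the ends of this distribution are shown first, because each gene is read through 1 short stretch of its transcript. Each line gives the first 30 of the 60 bases of a probe as the array design lists them, with its place on hg19. ABCG2 is the gene with the largest rise. PDE4B is the gene with the largest fall. The gene NCAM1 has 2 probes far apart that gave rises of different size, 2.61 for the first and 4.82 for the second.
ABCG2, chr4:89011503-89011562, minus strand: gtcccttacagttctctatatatacccttc
NCAM1, chr11:113103444-113103503, plus strand: ccccagactctgagaatgattttgggaact
NCAM1, chr11:113149074-113149133, plus strand: gtaaatactgagtactaactgagaattttg
PDE4B, chr1:66839789-66839848, plus strand: ggaaacactacatttgctcacagatgattc

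The largest rise was that of ABCG2, which encodes an ATP-driven pump that exports many drugs from cells. Its level was −3.33 and −3.07 on the WT arrays and 4.22 and 4.08 on the R50 arrays. The groups were thus far apart, by 7.35 on the log2 scale or 163-fold (SE 0.21, adjusted p = 7.89e-05). On the same slide as R50, CDK2-/- cells were at −3.72 and −3.08, near WT, and the difference of R50 from them was 7.55 (adjusted p = 2.64e-05).

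Several of the other large rises were in genes of the cell surface. PSCA and LY6D encode small lipid-anchored surface proteins of 1 family. PSCA stood at −1.71 and −1.83 in WT and at 3.55 and 3.43 in R50, a rise of 5.26 (38.3-fold, adjusted p = 2.13e-05). LY6D went from 1.33 and 1.17 to 4.93 and 4.79, a rise of 3.61 (adjusted p = 6.55e-05). Both were also higher in CDK2-/- cells than in WT, by 2.23 and 2.54, and R50 exceeded CDK2-/- cells on the same slide by 3.03 and 1.07. NCAM1, an adhesion molecule of neurons and some immune cells, was read by its brighter probe at −2.26 and −2.19 in WT and at 2.67 and 2.52 in R50, a rise of 4.82 (28.3-fold, adjusted p = 0.000439). That probe was not well above background on any array of CDK2-/- or WT+NU6102 cells. The dimmer NCAM1 probe, well above background on 1 of the 2 WT arrays, rose by 2.61 with an adjusted p of 0.0496, and the size of that rise is uncertain. Of the other neuroendocrine markers listed, SCG2, a secretory granule protein, rose by 1.71 in R50 and CHGA, CHGB, SYP and INSM1 were not well above background on any of the 4 arrays. SCG2 was also higher in CDK2-/- cells than in WT, by 1.74. NRP2, a receptor for semaphorins, rose by 2.69 and was close to WT in CDK2-/- and WT+NU6102 cells, with differences from WT of 0.04 and 0.13.

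Genes of signalling, transcription and the cytoskeleton were also among the 15 largest rises. ZBED2, a zinc finger protein of the nucleus, was at −0.88 and −1.04 in WT and at 3.22 and 3.21 in R50, a rise of 4.17 (18.1-fold, adjusted p = 6.15e-05). FRMD3, a protein with a FERM domain, rose by 3.23 and 3.37 by the 2 probes measured well above background in both groups, and its other probe was not on either WT array. TRIM45, a RING finger protein, rose by 2.96, S100P, a calcium-binding protein, by 3.06 and ANK1, an ankyrin that ties membrane proteins to spectrin, by 2.87. NOV, also called CCN3, a secreted protein of the matrix, rose by 2.66, and LOXL4, an enzyme that crosslinks collagen, by 2.65. CDK2-/- cells, on the same slide as R50, differed from WT by 2.18 for NOV and by 0.12 for LOXL4. The annexin ANXA8L2, whose current symbol is ANXA8L1, rose by 2.73, and near-identical copies of it exist that a probe of this length may not separate. RND3, a small GTPase that acts on the actin cytoskeleton, rose by 2.90, from −2.80 and −2.85 to 0.09 and 0.07. The CDK2-/- arrays, on the same slide as R50, lay close to it for RND3, at −0.04 and −0.03.

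The largest falls among genes measured on all 4 arrays included proteins of cAMP signalling, of G protein signalling and of cell junctions. PKIB, an inhibitor of protein kinase A, was at 0.78 and 0.65 in WT and at −3.20 and −3.21 in R50. It fell by 3.92 (adjusted p = 2.13e-05), while CDK2-/- cells were above WT at 1.95 and 1.97. HTR7, a serotonin receptor coupled to cAMP, fell by 2.65. HTR7P1, a pseudogene of it with closely related sequence, fell by 2.05 by its brighter probe, and the pair may share signal. The dimmer HTR7P1 probe, well above background on all 4 arrays, gave −0.07 and did not pass, so a fall of the pseudogene is uncertain. RGS2, which shortens G protein signalling, was at 5.06 and 5.04 in WT and at 2.22 and 2.12 in R50, so it fell by 2.88 (adjusted p = 4.34e-05). CDK2-/- cells, on the same slide as R50, were also low for RGS2, at 2.42 and 2.48. LPAR1, a receptor for lysophosphatidic acid, fell by 2.06.

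CLDN2, a claudin that forms channels in tight junctions, was at 0.27 and 0.22 in WT and at −2.99 and −3.57 in R50. It fell by 3.53 (adjusted p = 0.000342), and CDK2-/- cells were low as well, at −2.77 and −2.62. ARHGAP29, which switches off small GTPases, fell by 2.59, and the orphan nuclear receptor NR2F1 fell by 2.33, from 6.08 and 5.95 to 3.72 and 3.66. TMEM200A, a membrane protein, fell by 2.56. For ARHGAP29, TMEM200A, NR2F1 and LPAR1 the CDK2-/- arrays, on the same slide as R50, were within 0.51 of it on the mean and also below WT. ZNF430, a zinc finger protein, fell by 2.18 by its brighter probe, whereas the dimmer one gave −0.85 and did not pass.

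**Figure D2:**
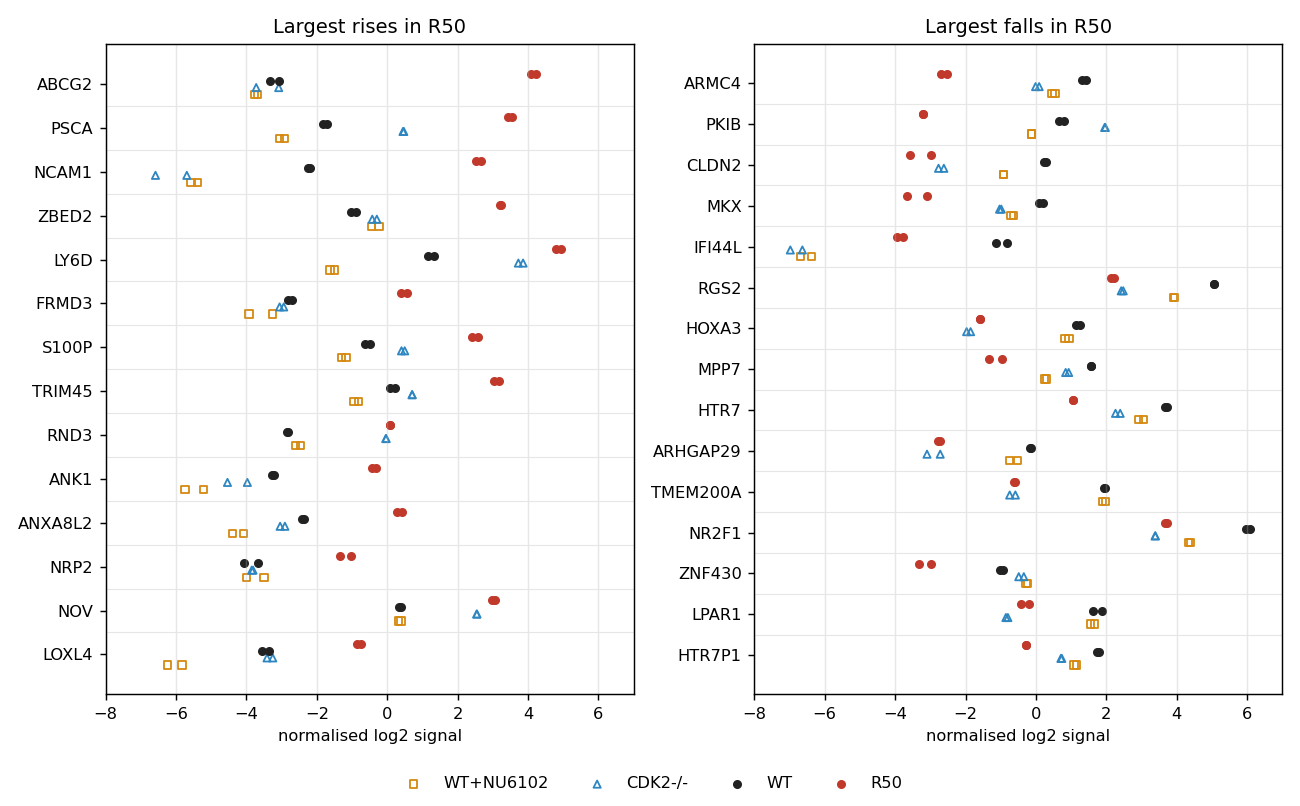
Normalised log2 level (x axis) of 14 of the 15 genes with the largest rises (left) and of the 15 with the largest falls (right) in R50 against WT, out of the genes that all 4 arrays measured well above background. Each symbol is 1 array: filled circles are WT (black) and R50 (red), triangles CDK2-/- and squares WT+NU6102; the 2 red and the 2 black circles do not overlap for any gene, by the choice of genes, and for ABCG2 the red circles stand alone near 4.

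Some called genes were well above background in 1 group only, and their changes are lower bounds. Of the genes called higher, 71 were not well above background on either WT array, and of those called lower, 41 were not on either R50 array. VTCN1, a surface protein that restrains T cells, was at least 25.8-fold higher in R50, with levels of 0.29 and 0.20. LXN, an inhibitor of carboxypeptidases, was at least 18.5-fold higher. LHFP, now LHFPL6, was at least 14.4-fold higher and was well above background in CDK2-/- cells too, at −1.54 and −1.78, and in WT+NU6102 cells, at −3.33 and −4.01. The calcium-binding protein CALB1 was at least 10.5-fold higher and PHGR1, a short intestinal protein, at least 9.79-fold.

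PDE4B, which breaks down cAMP, showed the largest bound in the other direction. It was at 1.53 and 1.41 in WT and not well above background on either R50 array, and was at least 54.0-fold lower in R50 (adjusted p = 0.000518). Neither other group shared this, since CDK2-/- cells were at 2.49 and 2.52 and WT+NU6102 cells at 0.84 and 0.89. GNG11, a gamma subunit of G proteins, was at least 16.8-fold lower and was not well above background in CDK2-/- cells either. WNT16, a secreted ligand, was at least 8.55-fold lower, SAMD3 at least 5.62-fold and HOXA2, a homeobox factor, at least 3.11-fold. The bound for APOA4, an intestinal apolipoprotein, was 3.91-fold, and rests on WT arrays that differed from each other, at −3.25 and −1.39.

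Drug export and metabolism were examined as whole gene lists. Among 32 ABC transporters, 10 passed higher and 7 lower, beside 13% and 15.9% of all genes, with a median difference of 0.06 against −0.04 over all genes, and 15 did not pass. The other called members were ABCA12, a lipid transporter, with 1.29, and ABCC2, an exporter of conjugated compounds, with 1.22, and both were higher still in CDK2-/- cells (2.16 and 1.46 above WT). The multidrug pump ABCB1 was not well above background on either WT array and stood near background in R50, at −3.38 and −3.31, at least 2.14-fold higher. In the authors' own processed values the ABCB1 change did not pass (1.60, adjusted p = 0.0548). ABCF1, a protein of this family that acts on ribosomes and does not transport, had the lowest difference of the list, −0.82.

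Of 60 phase I enzymes, the oxidases, reductases and dehydrogenases that modify drugs first, 18 passed higher and 6 lower, beside 13% and 15.9% of all genes, and 5 were called higher and 1 lower, beside 1.93% and 0.836%. CYP4F3, CYP4F2 and CYP4F12, which hydroxylate fatty acids, rose by 2.11, 1.53 and 1.22. These paralogs are alike enough in sequence that cross-hybridization between their probes cannot be told apart from a joint rise. AKR1C3, a ketosteroid reductase, was at −2.93 and −2.77 in WT and at −0.86 and −1.35 in R50, a rise of 1.75, and CDK2-/- cells were above WT by 1.45. ALDH1A3, which makes retinoic acid, rose by 1.54 from 4.67 and 4.62 to 6.21 and 6.15, whereas the difference of CDK2-/- cells from WT was −1.15. CYP24A1, which inactivates vitamin D, fell by 1.52, and the differences of CDK2-/- and WT+NU6102 cells from WT were −1.44 and −2.11. Among 23 phase II enzymes, which attach glutathione, sulfate or glucuronic acid, 6 passed higher and 1 lower, beside 13% and 15.9% of all genes, and none was called. The highest was SULT1A4 with 0.75, a sulfotransferase with a near-identical copy.

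The aryl hydrocarbon receptor and NRF2 are factors that switch on such enzymes in response to foreign compounds. Of 7 targets of the former, 5 passed higher and 1 lower, beside 13% and 15.9% of all genes, and the median was 0.51. The members higher were AHRR, the repressor of the receptor, with 1.53, CYP1A1 with 0.74, TIPARP with 0.63, ALDH3A1 with 0.51 and NQO1 with 0.43, while CYP1B1 fell by 0.55. The AHRR call was lost without WT replicate 2 (1.24, adjusted p = 0.0630) and without either R50 array (adjusted p = 0.0651 and 0.0561). Of 21 NRF2 targets, 6 passed higher and none lower, beside the same shares, with a median of −0.05. SLC7A11, the cystine transporter, was the highest of these after AKR1C3, with 0.84, and GCLM, GCLC, HMOX1 and TXNRD1, which stand for this response in most cells, had differences between −0.13 and 0.10.

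Genes of the cell cycle moved little, with 1 exception. CDK6 was at 1.47 and 1.42 in WT and at 3.08 and 3.04 in R50. It rose by 1.61 (3.06-fold, SE 0.05, adjusted p = 9.51e-05) and was alone among the kinases, cyclins and inhibitors listed to be called. CDK2-/- cells were at the WT level, at 1.52 and 1.55, and WT+NU6102 cells close to R50, at 2.86 and 2.80. CDK2, the target of the drug, was at −0.26 and −0.25 in WT, at −0.59 on both R50 arrays, a fall of 0.33, and at −1.08 and −1.02 in CDK2-/- cells. Where the probe lies relative to the part deleted in the CDK2-/- cells is not given in the sources used here, so its signal there is no check of the deletion.

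Of 14 genes for CDK1, CDK2, their cyclins and their switches, 9 passed lower and 2 higher, beside 15.9% and 13% of all genes. The median was −0.22. The members that passed lower included the phosphatase CDC25A (−0.42) and the kinase WEE1 (−0.23), which act on the same sites in opposite ways, and the higher ones were the phosphatases CDC25C (0.60) and CDC25B (0.47). Among 7 CDK inhibitors, CDKN2D, CDKN2B and CDKN1A passed higher, with 0.39, 0.34 and 0.32, and CDKN2C lower, with −0.27, beside the same shares. The CDKN2B value is weak, since it was well above background on 1 of the 2 WT arrays and its adjusted p of 0.0486 became 0.0642 to 0.190 when any 1 of the 8 arrays was left out. Among 12 kinases and cyclins of transcription, CDK19, a kinase of the mediator complex, was highest (0.88) and cyclin CCNK lowest (−0.40).

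Genes of DNA replication were lower by small amounts. Of 42 members, 25 passed lower and none higher (15.9% and 13% over all genes), the median was −0.24 and none was called. POLE2, a subunit of a replicative polymerase, was at 1.12 and 1.14 in WT and at 0.45 and 0.44 in R50, the largest fall of the list, 0.68. The helicase subunits MCM2 to MCM7 had differences between −0.33 and −0.23, and all passed. The nucleotide supply genes TYMS, TK1 and RRM2 did not pass, at −0.26, −0.12 and −0.01. Of 37 mitotic genes, 9 passed lower and none higher, nearer to the 15.9% of all genes than the replication genes were, with a median of −0.15, led by the kinesins KIF20B (−0.49) and KIF2C (−0.35). The count for replication was sensitive to the arrays used, at 10 without WT replicate 2 or R50 replicate 1, at 11 without WT replicate 1 and at 15 without R50 replicate 2.

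Interferon-stimulated genes formed the group with the lowest median of all 35 lists. Cells switch these genes on when interferon activates a complex of transcription factors that binds a DNA element called ISRE, and cell lines often keep them at a basal level. Of 41 members tested, 31 passed lower, none passed higher and 13 were called lower, against 15.9% and 0.836% of all genes, and the median difference was −0.89. The count of 31 stayed between 26 and 34 when any 1 array was left out.

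The element can be seen in the promoters of members that fell. Each line shows 60 of the 250 bases before the start of a gene on GRCh38.p14 from RefSeq, chosen to hold a match. Matches to the core of the element, GAAA, any 2 bases and GAAA again, read on either strand, are in capitals. Matches may overlap. In the 250 bases before the start this core occurs in 3.02% of 35116 promoters and in 3.39% of the 11877 tested genes that have a promoter in the table. Of the 41 members tested, 32 have a promoter in the table and 21 of these hold the core, namely 19 of the 24 that passed lower and 2 of the 8 that did not pass. All 12 called members with a promoter there are among them. With the other members missing, these counts describe the promoters shown in the table and are no test of the list. The match describes the letters and does not show that a factor was bound.
IFI44L, chr1:78620350-78620409, plus strand: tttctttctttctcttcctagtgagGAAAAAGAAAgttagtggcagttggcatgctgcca
IFI44, chr1:78649729-78649788, plus strand: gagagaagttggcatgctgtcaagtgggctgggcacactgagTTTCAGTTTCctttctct
IFIT1, chr10:89392495-89392554, plus strand: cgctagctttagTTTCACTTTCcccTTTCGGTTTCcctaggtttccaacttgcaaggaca
IFIT3, chr10:89327850-89327909, plus strand: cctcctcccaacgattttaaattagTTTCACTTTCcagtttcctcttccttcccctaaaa
BST2, chr19:17405720-17405779, minus strand: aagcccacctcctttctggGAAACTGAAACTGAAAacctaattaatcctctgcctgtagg
EPSTI1, chr13:42992257-42992316, minus strand: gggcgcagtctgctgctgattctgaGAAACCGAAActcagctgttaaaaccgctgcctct

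IFI44L had the largest fall of the list. It was at −0.81 and −1.14 in WT and at −3.77 and −3.95 in R50, and so fell by 2.89 (adjusted p = 0.000547). In CDK2-/- and WT+NU6102 cells its probe was not well above background on any array. Its neighbour IFI44 was at 1.43 and 1.30 in WT and at −0.68 and −0.61 in R50, a fall of 2.01. IFIT1, which binds viral RNA, went from 5.78 and 5.74 to 4.33 and 4.25, a fall of 1.47, and IFIT3 fell by 1.46. In every one of these genes the R50 arrays lay below the WT arrays and above those of both other groups.

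The remaining called members were OASL (−1.37), BST2 (−1.25), which tethers virus particles at the membrane, EPSTI1 (−1.17), IFI6 (−1.13), IFITM1 (−1.11), the GTPase MX1 (−1.08), DDX60 (−1.07), the ubiquitin-like protein ISG15 (−1.06) and OAS3 (−1.01). ISG15 was at 7.77 and 7.69 in WT and at 6.66 and 6.67 in R50. EPSTI1 was not well above background in R50, at least 1.37-fold lower, and its call was lost when any of the 4 arrays was left out (adjusted p between 0.0883 and 0.116). Among the factors that act on these genes, IRF7 fell by 0.81, while STAT2 (0.01) and IRF9 (−0.22) did not pass. OAS1 and RSAD2 had differences of −0.98 and −0.96 and did not pass. The fit takes the error of a probe from all groups, and the CDK2-/- arrays differed from each other for both, at −2.62 and −5.21 for OAS1 and at −2.55 and −4.71 for RSAD2. TRIM22 had the highest value of the list, 0.93, and did not pass.

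IFIT1, IFITM1 and IFI6 were lower still in the other groups. On the same slide, R50 exceeded CDK2-/- cells by 3.57 for IFIT1 (adjusted p = 5.43e-06), by 5.27 for IFITM1 and by 3.75 for IFI6. The difference of WT+NU6102 cells from WT was −3.47 for IFIT1, −2.81 for IFITM1 and −1.28 for IFI6. OASL was an exception, since its difference from WT was −1.37 in R50 and −1.31 in WT+NU6102 cells. Class I antigen presentation, which interferon also raises, did not share the fall as a group, with a median of −0.08. Of its 15 genes 2 passed lower, PSMB9 (−0.63) and PSMB10 (−0.28), near the 15.9% of all genes, and 1 higher, TAPBP (0.19), beside 13%. PSMB10 no longer passed with only the arrays of R50 and WT (limma, adjusted p = 0.0593) or without a filter (adjusted p = 0.123). HLA-B, HLA-C and B2M had differences between −0.11 and −0.03. Of 12 targets of NF-kB, 2 passed higher and 4 lower, beside 13% and 15.9% of all genes.

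**Figure D3:**
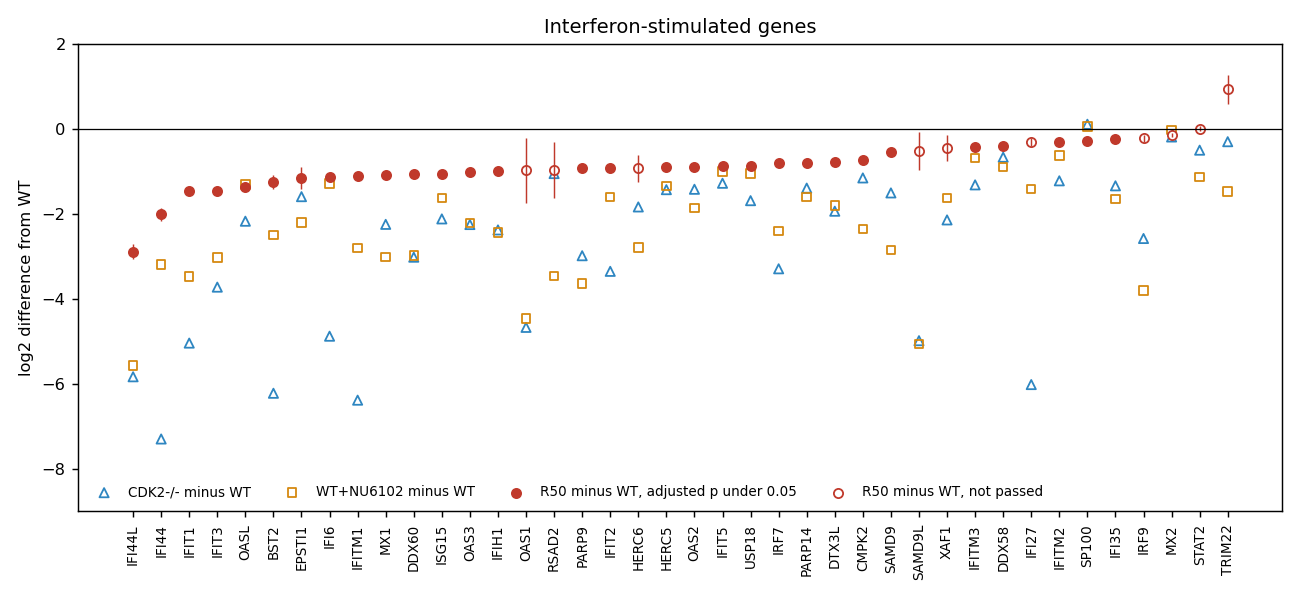
Log2 difference from WT (y axis) of 40 of the 41 interferon-stimulated genes tested, in order of the R50 difference. Circles are R50, filled where the adjusted p was under 0.05, with bars of 1 SE; triangles are CDK2-/- and squares WT+NU6102, shown without error. R50 values run from −2.89 for IFI44L to 0.93 for TRIM22, and most triangles and squares lie below the circles.

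Among genes of adhesion and matrix, more members passed higher than lower. Of 41 integrin and focal adhesion genes, 12 passed higher and 5 lower, beside 13% and 15.9% of all genes, and 5 were called higher, beside 1.93%. The count of members that passed lower was near the share over all genes. ITGB7, an integrin beta chain, was at −1.72 and −1.82 in WT and at 0.19 and 0.26 in R50, a rise of 1.99 (3.98-fold, adjusted p = 0.000105). ITGB4, the beta chain of the hemidesmosome integrin, rose by 1.12, and its partner ITGA6 passed with 0.56. The tensins TNS3 and TNS4, which tie integrins to actin, rose by 1.21 and 1.05, whereas TNS1 fell by 0.59. The talin and vinculin genes TLN1, TLN2 and VCL had differences between −0.01 and 0.06.

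Of 34 collagens and laminins, 13 passed higher and 2 lower, beside the same 13% and 15.9%, with a median of 0.16. COL9A3 was at 3.27 on both WT arrays and at 4.83 and 4.79 in R50, a rise of 1.54 (2.91-fold). LAMB3 and LAMB2, laminin chains of the basement membrane, rose by 1.53 and 1.24, and COL6A1 rose by 1.15 with its partner COL6A2 at 0.82. These genes did not move alike in CDK2-/- cells, where the difference from WT was −0.43 for COL9A3 and 0.87 for LAMB2.

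Epithelial genes moved in both directions and several keratins were higher. Of 36 genes of junctions and keratins, 12 passed higher and 6 lower, beside 13% and 15.9% of all genes. The count of members that passed lower was near that share. KRT80 rose by 1.67 and KRT23 by 1.34, and the simple epithelial keratins KRT8, KRT18 and KRT19 by 0.83, 0.74 and 0.68. CDK2-/- cells differed from WT by 0.24 for KRT80 and by 1.94 for KRT23. E-cadherin, CDH1, was higher by 0.60, EPCAM differed by 0.03, and CLDN2 was the only member called lower. Among 11 mesenchymal markers 4 passed higher and 2 lower, beside 13% and 15.9% of all genes, and 3 were called higher, beside 1.93%. SPARC (1.48), S100A4 (1.26) and NCAM1 (4.82) were called higher and ZEB1 passed with 0.45. SNAI2 and VIM fell by 0.84 and 0.58, and FN1, CDH2 and TWIST1 did not pass. SPARC, a secreted matrix protein, was at 4.05 and 4.38 in WT and at 5.79 and 5.61 in R50, and at −3.90 and −3.34 in CDK2-/- cells.

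Intestinal genes did not move as a group. Of 21 members 3 passed higher and 4 lower, near the 13% and 15.9% of all genes. The colon factors CDX1 and CDX2 differed by 0.04 and 0.01. CEACAM1, an adhesion molecule of epithelia, rose by 2.09 and KLF5, a factor of crypt cells, by 1.44. HNF4G, well above background on 1 of the 2 R50 arrays, fell by 1.66, with WT arrays at −2.95 and −2.0, and its call was lost without WT replicate 2 (−1.18, adjusted p = 0.0527) or without either R50 array (adjusted p = 0.0886 and 0.0662).

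Of 10 ligands and receptors of the EGF family, 3 ligands were called lower, beside 0.836% of all genes. In addition 1 receptor passed higher, beside 13% of all genes. AREG was at 4.41 and 4.43 in WT and at 2.89 and 2.78 in R50, and so fell by 1.58 (2.99-fold, adjusted p = 0.000113). EREG, which lies next to it on chromosome 4, was at 3.22 and 3.28 in WT and at 1.72 and 1.51 in R50 and fell by 1.64. In CDK2-/- cells AREG was above WT by 1.57, so that R50 minus CDK2-/- on the same slide was −3.15, and EREG differed from WT by −0.07. In WT+NU6102 cells both were above WT, by 1.09 and 0.68. NRG2 was called as well, at least 1.95-fold lower, and its call was lost without either WT array (adjusted p = 0.0808 and 0.0544). Of the receptors ERBB2 was higher by 0.46, and EGFR and ERBB3 did not pass, at −0.22 and −0.09.

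The feedback genes that ERK induces gave no common direction. Of 15 members 2 passed higher and 3 lower, near the 13% and 15.9% of all genes, with a median of −0.02. SPRY4 fell by 0.65 and DUSP6 by 0.26, and PHLDA1 and DUSP4 were higher by 0.95 and 0.35. The PHLDA1 value is that of its brighter probe, whereas the dimmer one gave −0.05 and did not pass.

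Of 12 Wnt targets, 7 passed higher and 2 lower, beside 13% and 15.9% of all genes, with a median of 0.25. ZNRF3, a ligase that removes Wnt receptors, was the highest at 0.79, whereas its close relative RNF43 fell by 1.40 (adjusted p = 0.000222), from −0.77 and −0.70 to −2.17 and −2.09. RNF43 moved the other way in CDK2-/- cells, which were at 2.94 and 2.99. AXIN2, the usual readout of the pathway, was higher by 0.39 and MYC did not pass, at 0.10. Of 9 targets of BMP and SMAD factors 3 passed higher, among them ID3 (0.94) and SMAD6 (0.84), and 4 lower, beside the same shares.

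HOX genes, which encode position along the body axis, were lower mostly in the HOXA cluster. Of 28 members, 12 passed lower and 2 higher, beside 15.9% and 13% of all genes. HOXA3 was at 1.15 and 1.25 in WT and at −1.59 on both R50 arrays, a fall of 2.79 (adjusted p = 6.15e-05). HOXA4 fell by 1.18, and HOXA5, HOXA6, HOXA7, HOXA9 and HOXA11 passed with differences between −0.77 and −0.34. The count of 12 dropped to 8 without WT replicate 1 or R50 replicate 2. CDK2-/- cells were low for HOXA3 as well, at −1.86 and −1.97, and WT+NU6102 cells were not, at 0.94 and 0.83. The low and the high arrays thus lie on different slides, and slide and group cannot be told apart here.

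Of 24 targets of p53, which is wild type in HCT-116, 12 passed higher and 2 lower, beside 13% and 15.9% of all genes, the median was 0.21 and none was called. The highest were TP53INP1 (0.79) and GDF15 (0.70), and CDKN1A, MDM2 and BAX were at 0.32, 0.13 and 0.12, of which the first passed. CDK2-/- cells differed from WT by 0.70 for TP53INP1 and by −0.29 for GDF15. Over the list the median of R50 minus CDK2-/-, on the same slide, was 0.03, so the higher median cannot be told apart from slide. The count of 12 dropped to 6 without WT replicate 1 or R50 replicate 1, to 7 without R50 replicate 2 and to 8 without either CDK2-/- array. In the BCL2 family, PMAIP1 and HRK, which promote cell death, fell by 0.75 and 0.54, while BBC3, which also does, and BCL2L1, which prevents it, were higher by 0.50 and 0.49.

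Of 41 purine genes 5 passed higher and 8 lower, near the shares of 13% and 15.9% over all genes. NT5E, the surface enzyme that makes adenosine, was at 0.41 and 0.48 in WT and at −1.76 and −1.46 in R50 and fell by 2.05, with CDK2-/- cells also low and WT+NU6102 cells higher than WT by 1.16. XDH, which makes uric acid, was at least 2.23-fold higher from a level below background. Of 33 glycerolipid genes 12 passed higher and 5 lower, beside the same shares, and AGPAT9, which acylates glycerol phosphate, was called, with −1.26. Of 30 genes of cholesterol and fatty acid synthesis 10 passed higher and 3 lower, beside the same shares and all by less than 1. Among them was LSS, an enzyme of the sterol pathway, at 0.46.

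Glycolysis and the response to hypoxia were near the median of all genes. Of 18 glycolytic genes 4 passed higher and 2 lower, beside 13% and 15.9% of all genes. ALDOC, an aldolase, was called with a rise of 1.0. Of 22 hypoxia genes 4 passed higher and 3 lower, beside the same shares. The hypoxia marker CA9 was at −2.89 and −0.17 on the R50 arrays, which differed from each other, and its difference of 2.18 did not pass (adjusted p = 0.107).

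Of 17 heat shock genes 11 passed lower and 1 higher, beside 15.9% and 13% of all genes, with a median of −0.25 and none called. HSPB1 and HSP90AB1 fell by 0.38 and 0.34. This count rested on the full set of arrays, since 2 passed lower without WT replicate 2, 3 without either R50 array and 5 without WT replicate 1. CDK2-/- cells differed from WT by −0.56 for HSPB1 and −0.29 for HSP90AB1. Over the heat shock list the median of R50 minus CDK2-/-, on the same slide, was −0.01, so the lower median cannot be told apart from slide. In the endoplasmic reticulum list of 47 genes 4 passed higher and 8 lower, beside 13% and 15.9% of all genes. The only called member, beside 1.93% called higher over all genes, was SEC31A, a coat protein of secretory vesicles. It was at −0.35 and −0.37 in WT and at 1.78 and 1.72 in R50, a rise of 2.11. SEC31A was raised by 1.89 in CDK2-/- cells too, on the same slide as R50. In R50 the stress markers HSPA5, XBP1 and DDIT3 differed by 0.02, −0.08 and −0.50, of which the last passed. Of 20 genes of the response to amino acid shortage 4 passed higher and 3 lower, beside 13% and 15.9% of all genes. Of 55 endocytic genes 12 passed higher and 4 lower, beside the same shares.

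**Figure D4:**
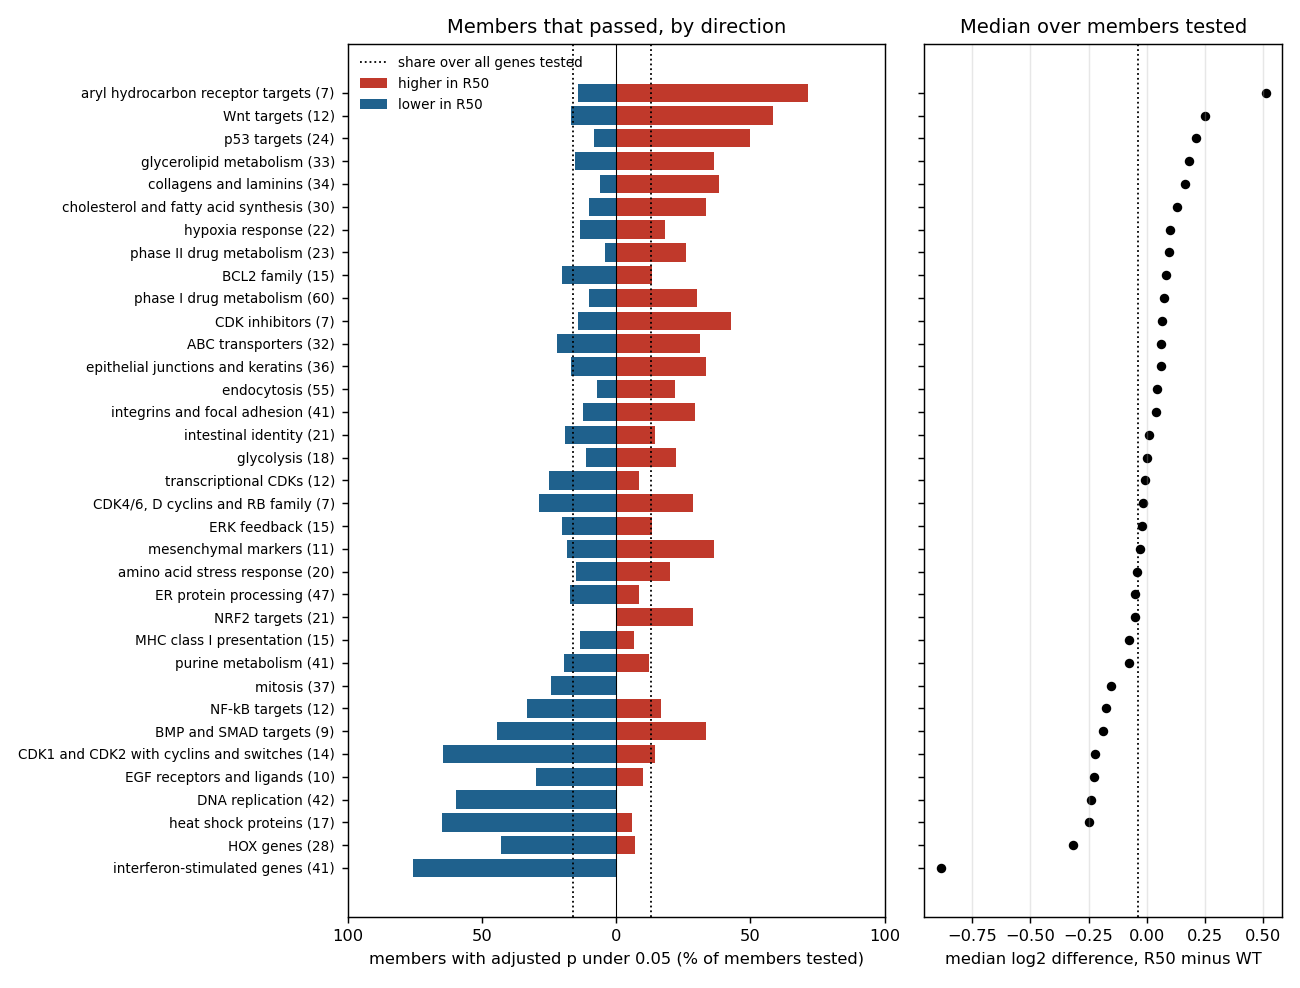
Left, share of the tested members of each of 35 lists (x axis, percent; list size in brackets) that passed the test as higher (red, to the right) or lower (blue, to the left) in R50, with dotted lines at the shares over all genes, 13% and 15.9%. Right, the median log2 difference over the members, with a dotted line at the median of all genes, −0.04; interferon-stimulated genes lie lowest at −0.89 and the 7 aryl hydrocarbon receptor targets highest at 0.51.

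Positions of the changed genes were read on hg19. No chromosome stood apart, since the median difference by chromosome ran from −0.07 for chromosome 6 to −0.01 for chromosome 15. Over windows of 11 neighbouring genes the lowest median was −0.88, on chromosome 7 from CBX3 into the HOXA cluster, and the next were on chromosome 19 in blocks of zinc finger genes, with −0.70 and −0.69. In CDK2-/- cells the same 2 zinc finger blocks were above WT, by 0.33 and 0.31. The highest medians were 0.80 in the kallikrein cluster and 0.73 in the CYP4F cluster, both on chromosome 19, and 0.74 among keratins on chromosome 12.

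Several called genes were direct neighbours. On chromosome 10 MKX, a homeobox factor of tendon, ARMC4, now ODAD2, a protein of ciliary dynein arms, and MPP7, a scaffold of cell polarity, followed each other over 378 kb, from 27962329 to 28339990, and all 3 fell. ARMC4 was at 1.43 and 1.31 in WT and at −2.71 and −2.54 in R50 and fell by 4.0 (adjusted p = 5.32e-05). MKX fell by 3.52 and MPP7 by 2.71. The genes on either side, RAB18 and WAC, differed by −0.17 and −0.19 and did not pass. All 3 were also below WT in CDK2-/- cells, with differences of −1.15 for MKX, −1.33 for ARMC4 and −0.67 for MPP7, and R50 minus CDK2-/- on the same slide was between −2.66 and −2.03.

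On chromosome 7 the noncoding RNA HOTAIRM1 fell by 1.21 beside HOXA2, HOXA3 and HOXA4, within 28.5 kb. On chromosome 19 TNFSF9 and CD70, ligands that costimulate T cells, and the complement component C3 rose together by 1.37, 2.11 and 2.21. On this chromosome the noncoding RNA UCA1 was at 5.16 and 5.07 in WT and at 7.24 on both R50 arrays, a rise of 2.12, and lies between called CYP4F genes. The kallikreins KLK5 and KLK6, secreted proteases, rose by 1.38 and 1.35. KLK10 was well above background on 1 of the 2 WT arrays, at −5.57 and −3.49, and stood at −1.98 and −1.80 in R50, so that the size of its rise is uncertain, and KLK11 was at least 2.0-fold higher. FXYD3, a regulator of the sodium pump, rose by 2.57 from 3.59 and 3.64, and CDK2-/- cells were close to R50 at 5.98 and 6.08. On chromosome 1 VTCN1 lies next to TRIM45, and both rose.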

How the data were processed

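RNA from HCT-116 cells was labelled with Cy3 and each sample was hybridized to 1 Agilent one-colour array of 60-base probes. The authors deposited scanner files made with Agilent Feature Extraction 11.5.1.1, per the submitters' processing notes, whose processed signal is an intensity from which the background was taken and which was not normalized across arrays. They also deposited log2 values of 28719 probes processed in GeneSpring GX, which equal the log2 signal less a constant per array and centred on each probe's median. These served as an alternative only. The study's own analysis was a one-way ANOVA over all groups.

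Control and outlier spots were dropped, and the log2 of the processed signal was set relative to the 75th percentile of the array. Repeat spots of the same probe were averaged. Among 50599 probes, 31 lacked a usable spot on some array, and 27531 were well above background on both arrays of R50 or of WT and were tested. Genes are read by the probe with the highest mean. Of the tested probes, 21453 matched a RefSeq gene of GRCh38.p14, giving 15438 genes, and 3024 of these probes have a newer symbol there. Probe positions are those of the WT files, on hg19. Promoters come from RefSeq on GRCh38.p14.

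Limma 3.58.1 in R 4.3.3 (files read with data.table, version 1.17.8) fitted the 8 arrays together, and p-values were adjusted by Benjamini-Hochberg over all tested probes. All tests are two-sided. The script was tested on simulated data. Figures used Python 3.11.15, numpy 2.4.6, pandas 2.3.3 and matplotlib 3.10.9. A bound sets the mean of the brighter group against, for each array of the dimmer group, the higher of the probe's own level and the lowest level among probes well above background. The 2 arrays per group limit the precision.

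Named genes are, of the called genes that all 4 arrays measured well above background, the 15 with the largest rise and the 15 with the largest fall, then the 6 largest bounds in each direction, and for each list its called members or else up to 2 members that passed with the largest change, with CDK2 and CDK6. LOC, clone, antisense and open reading frame names were passed over. Some genes that this rule names are not reported here. Other genes were named from the lists or as neighbours after their values were seen. The members, lists and tests were chosen with earlier results of these data known. Other settings tried were normexp background correction (offset 50), quantile and median normalization, no filter and a stricter filter, the authors' values, a trended prior variance, the mean over probes, only the 4 arrays, a replicate block, ANOVA without moderation, an adjusted p under 0.001 and leaving out each array.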

Additional observations from a re-analysis of the deposited data

How the results depend on the processing

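Each comparison of counts below starts from 298 genes higher and 129 lower at a difference of at least 1, and from 2002 higher and 2452 lower at any size. With normexp background correction, 171 were higher and 57 lower by at least 1. Probes well above background on all 4 arrays gave 85 lower. An adjusted p under 0.001 gave 140 higher and 66 lower by at least 1, and 215 and 101 at any size. Without a filter on dim probes the counts at any size were 868 higher and 633 lower, and with only the arrays of R50 and WT 1175 and 902, so that in these fits more genes were higher than lower. Leaving out 1 array gave between 268 and 298 higher and at most 144 lower by at least 1, and between 1060 and 1789 higher and between 916 and 1980 lower at any size. For DNA replication, 25 members lower became 7 without a filter, 8 with only the 4 arrays and between 10 and 24 with 1 array left out. For p53 targets, 12 higher became 6 without a filter, 6 with only the 4 arrays and between 6 and 10. For heat shock genes, 11 lower became 7 with quantile normalization, 1 without a filter, 4 with only the 4 arrays and between 2 and 10. For HOX genes, 12 lower became 7 without a filter, 8 with only the 4 arrays and between 8 and 12. The 31 interferon-stimulated genes ranged from 26 to 34. Fewer arrays and a larger number of probes tested are part of these settings, and otherwise the cause was not tested.

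The replicate numbers did not pair the samples (correlation of the deviations of R50 and WT −0.03 across probes), and with a replicate block the counts were 289 and 123 by at least 1 and 1798 and 2131 at any size. All 132 named genes passed in the main fit, and 117 kept their direction and an adjusted p under 0.05 under every alternative. The other 15 no longer passed under some, most of them without a filter (14), and none changed direction. The condition on size was not part of this check. Some called genes had differences under 1 in some setting, such as HOXA2 at −0.59 and HOXA4 at −0.73. The difference of ABCG2 ranged from 6.08 to 7.48 and that of PDE4B from −7.82 to −4.09. The medians of the interferon, DNA replication, heat shock, HOX, p53 and Wnt lists kept their sign in every setting, and the medians of 20 other lists or chromosomes, all between −0.06 and 0.08, changed sign in some. Arrays of 2 samples a group cannot separate a change from the slide, and signals near background give only bounds.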
